A study of Rattus norvegicus with 3 samples.

Results

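The genes described here are 7 members of the neurexin, neuroligin and Cntnap families, Nrxn2, Nrxn3, Nlgn1, Nlgn2, Nlgn3, Cntnap2 and Cntnap4, of 23098 features in the deposited tables. They were picked by symbol with earlier results of the same libraries in view, namely that Cntnap4 was higher with urolithin A in D2 medium spiny neurons and that Nlgn3 was lower with high anxiety in D1 medium spiny neurons. Those differences are therefore given as descriptions and support nothing. Single-nucleus RNA sequencing had been run on nucleus accumbens punches of rats sorted by anxiety-like behaviour, and the members are described across cell classes and across the 3 groups.

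Neurexins are presynaptic adhesion proteins that bind neuroligins on the facing postsynaptic membrane, and many further ligands compete for or bridge the same contact. Neuroligins differ in where they sit: neuroligin 1 is known at excitatory synapses, neuroligin 2 at inhibitory synapses, and neuroligin 3 at both. The Cntnap genes encode Caspr proteins, relatives of neurexins that pair with contactins. Caspr2 clusters potassium channels along myelinated axons, and Caspr4 is known from interneurons of the mouse, where it acts at GABA release sites. The nucleus accumbens is the ventral part of the striatum, and most of its neurons are GABAergic medium spiny neurons that carry the dopamine receptor D1 or D2.

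The animals were outbred Wistar rats, ranked as high or low in anxiety from maze, open-field and object tests. The groups were high anxiety rats that received urolithin A, which gut bacteria make from dietary ellagitannins, for 2 months, untreated high anxiety rats, and untreated low anxiety rats. Each group was 1 library, in which punches of 5 hemispheres from rats aged 16 weeks were pooled, so no replicate spread, test or p-value could be had. Every difference below is between 2 libraries, and every interval is an exact 95% interval for counting error only.

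The tables held 19162530 unique molecular identifiers (UMIs) in the urolithin A library, 22095390 in the high anxiety library and 16728049 in the low anxiety library. After filtering, 3421, 3694 and 3379 nuclei remained in the order urolithin A, high anxiety, low anxiety, with median totals of 4726, 4550 and 3952 UMIs per nucleus. Pairs of libraries shared 4 to 6 cell barcodes. Nuclei were grouped into 25 clusters without using the 7 members, and clusters were named from markers. Neurons named D1 (767, 664 and 759 nuclei in the same order) came from cluster 1, led by Ebf1, Reln and Pdyn, and from cluster 5, led by Nmb, Il20ra and Drd3, which held 0 of the D1 or shared spiny markers among its 10 leading genes. Neurons named D2 (532, 505 and 557 nuclei) came from cluster 4, led by Drd2, Adora2a and Gpr6, and from cluster 8, led by Calcr and Penk. The 6 D2 markers summed to between 3414 and 3846 CPM in D2 neurons, and the 7 D1 markers to between 1004 and 1064 CPM in D1 neurons and between 20.5 and 53.1 CPM in D2 neurons (CPM, UMIs per 1000000 UMIs of the class in 1 library). Eccentric medium spiny neurons, a further spiny type marked by Casz1, were clusters 7, 15 and 18, of which 15 and 18 held 0 of their markers among the leading genes. Cluster 18 held 17, 12 and 120 nuclei, so it was mostly low anxiety. Cluster 14, led by Itgb6 and Grpr (75, 57 and 58 nuclei), kept no name, and neither did cluster 11, led by Crh and Galr1 (225, 64 and 79 nuclei). Both are left out of the class rankings. A class was compared between libraries where each library held at least 100 of its nuclei.

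Levels are given in CPM. The members were spread over a wide range and had different leading classes. Of the 11 classes with at least 15 nuclei in each library, oligodendrocyte precursors gave the highest mean level over the 3 libraries for Nrxn2, Nlgn1, Nlgn2 and Nlgn3. Nrxn3 was led by eccentric medium spiny neurons, Cntnap2 by D2 neurons and Cntnap4 by GABAergic interneurons.

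**Figure D1:**
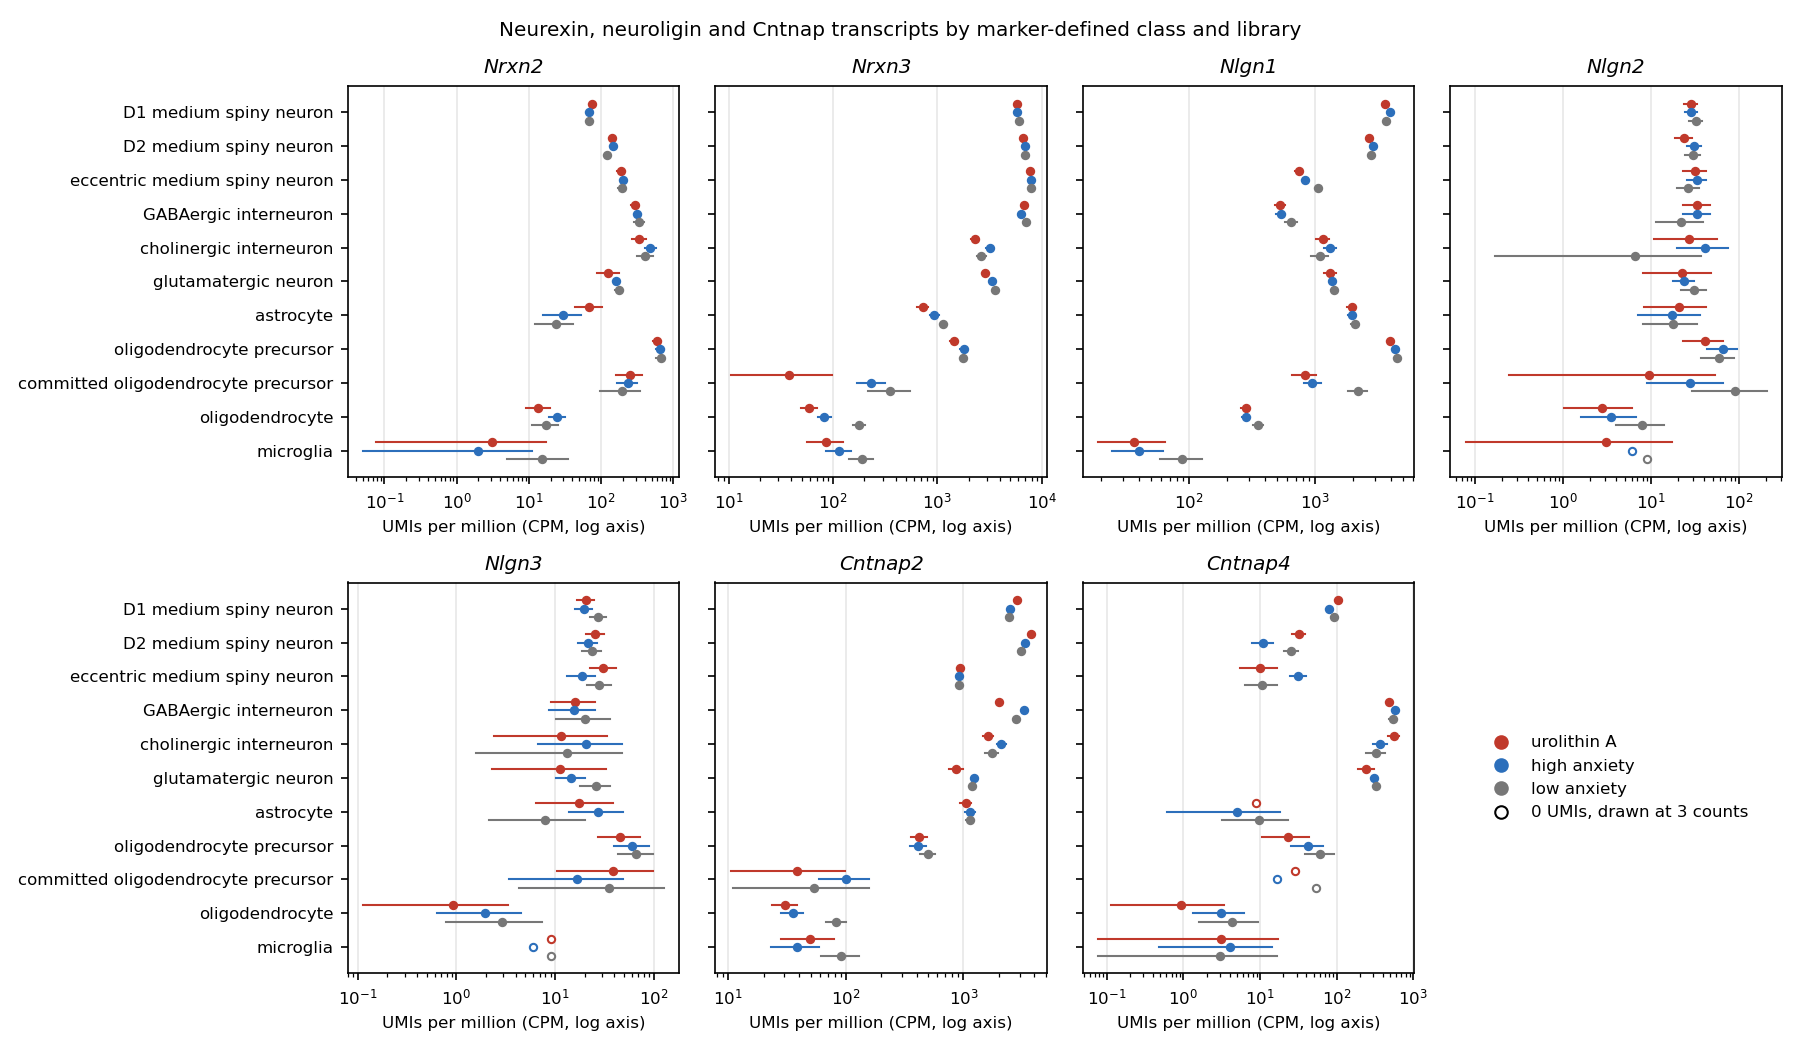
Level of each member (CPM, log axis) in 11 marker-defined classes, 1 point per library with its exact Poisson 95% interval; open points stand for 0 UMIs and are drawn at 3 counts. Nrxn2 and the 3 neuroligins reach their highest mean in oligodendrocyte precursors, with few UMIs for Nlgn2 and Nlgn3. Cntnap4 is higher in the interneuron and glutamatergic classes than in the medium spiny classes.

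The neurexins are the presynaptic members. Nrxn2 had 603, 656 and 665 CPM in oligodendrocyte precursors in the urolithin A, high anxiety and low anxiety libraries. Its D2 levels were 141, 145 and 122 CPM and its D1 levels 75.7, 67.7 and 69.0 CPM. The 3 libraries of each class did not overlap with those of the other 2 classes, and D2 stood above D1 by 0.82 to 1.10 on the log2 scale in each library.

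Nrxn3 had 7725, 7947 and 7879 CPM in eccentric neurons of the urolithin A, high anxiety and low anxiety libraries. Its D2 levels were 6621, 6913 and 6946 CPM, and its D1 levels 5783, 5833 and 6037 CPM. GABAergic interneurons, at 6785, 6315 and 7120 CPM, overlapped with the D2 range. Nrxn3 was found in 99.5% to 100% of D1 and D2 nuclei in each library. Its levels were higher still in the unnamed Grpr cluster 14, at 11110, 11566 and 12072 CPM. The neuroblast or dividing cells had 17038 CPM in high anxiety and 16325 CPM in low anxiety, where 113 and 39 nuclei were found, and the urolithin A library held 5 such nuclei, too few to compare.

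The neuroligins, the postsynaptic partners, split into a high and a low pair of levels. In D2 neurons of the urolithin A, high anxiety and low anxiety libraries Nlgn1 had 2654, 2881 and 2759 CPM. Its D1 levels were 3549, 3918 and 3640 CPM in the same order. D2 lay below D1 in each library, by -0.44 to -0.40 on the log2 scale. In oligodendrocyte precursors Nlgn1 had 3877, 4280 and 4426 CPM, a range that overlapped with D1, and in GABAergic interneurons 525, 532 and 645 CPM. Among the spiny clusters Nlgn1 was lower in eccentric neurons, at 739, 829 and 1042 CPM.

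Nlgn2 and Nlgn3 were sparse. For Nlgn2 the D2 levels were 23.7, 30.8 and 29.9 CPM with urolithin A, high anxiety and low anxiety, and the D1 levels were 28.2, 28.7 and 32.0 CPM, so the ranges overlapped. For Nlgn3 the D2 levels were 25.4, 21.6 and 23.8 CPM and the D1 levels 20.5, 19.5 and 27.4 CPM in the same order, which overlapped as well. Both had their highest mean in oligodendrocyte precursors, at 40.7, 65.6 and 58.5 CPM for Nlgn2 and 45.8, 60.9 and 66.5 CPM for Nlgn3. These rest on 16, 28 and 22 UMIs for Nlgn2 and 18, 26 and 25 UMIs for Nlgn3. The Nlgn2 range overlapped with that of committed oligodendrocyte precursors, from 9.58 to 88.9 CPM on 11 UMIs. Nlgn3 had 0 UMIs in the microglia of each library, which allows up to 9.20, 6.01 and 9.09 CPM at 3 counts.

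The sequences before the start sites of the neuroligins are shown because Nlgn2 and Nlgn3 had the most alike cluster patterns of any pair of members and differ from Nlgn1 in level. They are the 250 bases before the start, read in the direction of the gene, from RefSeq on build GRCr8, with CG dinucleotides in capitals, and 3 of the 7 members had an entry. Nlgn1 lies at chr2:110930677-110930926 on the minus strand, Nlgn2 at chr10:55056579-55056828 on the minus strand and Nlgn3 at chrX:70469228-70469477 on the plus strand.
Nlgn1: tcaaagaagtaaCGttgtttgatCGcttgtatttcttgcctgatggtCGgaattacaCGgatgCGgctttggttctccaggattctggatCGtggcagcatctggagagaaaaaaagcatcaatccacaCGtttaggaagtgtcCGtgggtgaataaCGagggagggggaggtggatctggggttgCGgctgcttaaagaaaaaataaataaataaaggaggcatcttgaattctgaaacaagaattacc
Nlgn2: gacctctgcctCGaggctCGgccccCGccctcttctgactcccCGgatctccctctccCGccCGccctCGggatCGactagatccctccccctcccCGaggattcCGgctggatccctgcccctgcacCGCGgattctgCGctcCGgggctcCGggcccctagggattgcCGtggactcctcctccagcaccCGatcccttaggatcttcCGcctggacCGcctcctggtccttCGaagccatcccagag
Nlgn3: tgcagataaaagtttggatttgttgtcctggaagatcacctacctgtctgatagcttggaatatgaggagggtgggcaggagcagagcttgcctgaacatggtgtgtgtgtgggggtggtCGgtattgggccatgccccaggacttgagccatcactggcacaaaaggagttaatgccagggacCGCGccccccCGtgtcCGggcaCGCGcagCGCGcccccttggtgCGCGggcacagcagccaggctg
Nlgn1 held 10 CG dinucleotides, with 44.4% G or C, Nlgn2 held 20, with 69.2%, and Nlgn3 held 11, with 60%. Among 33469 RefSeq promoter windows of the same length, 35.9% held at least as many as Nlgn1, 16.7% as many as Nlgn2 and 33.6% as many as Nlgn3. The word GGGCGG, counted on both strands, occurred 3 times in Nlgn2 and not in Nlgn1 or Nlgn3, and 30.5% of all windows hold it. TGACGTCA (1.59% of windows) and TATAAA (12.9% of windows), also counted on both strands, were not in these 3 windows. No measurement of chromatin or binding was made here, so the windows are a description only.

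The Cntnap genes encode the Caspr proteins. Cntnap2 levels of D2 neurons were 3755, 3357 and 3071 CPM with urolithin A, high anxiety and low anxiety, and those of D1 neurons 2836, 2494 and 2458 CPM, so D2 was above D1 by 0.32 to 0.43 on the log2 scale in each library. GABAergic interneurons overlapped with both at 1996, 3287 and 2807 CPM, with 139, 114 and 82 nuclei. Eccentric neurons were lower, at 929, 922 and 924 CPM.

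Cntnap4 had 480, 572 and 542 CPM in GABAergic interneurons and 561, 367 and 327 CPM in cholinergic interneurons, in the order urolithin A, high anxiety, low anxiety. Those cholinergic values rest on 26, 18 and 15 nuclei, and the 2 ranges overlapped. Its D2 levels were 31.9, 11.0 and 25.5 CPM and its D1 levels 105, 79.2 and 92.1 CPM. D2 was below D1 in each library, with log2 ratios of D2 over D1 between -2.84 and -1.72. D1 and D2 levels of Cntnap4 sat below those of interneurons in each library, and Cntnap4 had 4 UMIs in microglia over the 3 libraries. Glutamatergic neurons (21, 198 and 99 nuclei) also stood above D1 neurons, at 245, 306 and 325 CPM, so a high level was not particular to interneurons.

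Across all 7 members, D2 over D1 kept its sign in the 3 libraries for 5 members: Nrxn2, Nrxn3 and Cntnap2 were higher in D2, and Nlgn1 and Cntnap4 were higher in D1. Nlgn2 (log2 ratios from -0.25 to 0.10) and Nlgn3 (from -0.20 to 0.31) had both signs. Since the members' spans differ from 14.4 kb for Nlgn2 to 2257 kb for Cntnap2 in RefSeq on GRCr8, and nuclear RNA can hold introns, levels were also divided by span. Per 100 kb of span, D1 levels of the high anxiety library were 423 CPM for Nlgn1, 358 for Nrxn3, 199.5 for Nlgn2, 111 for Cntnap2, 69.2 for Nlgn3, 58.4 for Nrxn2 and 27.5 for Cntnap4. On this scale Nlgn2 stood above Cntnap2, opposite to the order in CPM.

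The shape of the patterns was compared over 23 clusters with at least 50 nuclei, with the libraries pooled and log2(CPM + 1) as the measure, among 9940 genes. These correlations are descriptions over clusters that share libraries and depth. Nrxn3 was most like Nsg2 (r = 0.98), Myt1l and Efnb3. Nlgn2 was most like Spem1 (r = 0.96), its direct neighbour in RefSeq, followed by Dmd and Apc2. Nrxn2 was most like Spem1 (r = 0.92), Dcx and Cadps, Nlgn1 like Naaladl2 (r = 0.84), Fech and Cc2d2a, Nlgn3 like Kcnn2 (r = 0.90), Galnt16 and Lrrc49, and Cntnap4 like Elavl2 (r = 0.89), Rock1 and Tro. Cntnap2 was like Smarcd3 (r = 0.94) and Ptprn2. Between members the highest values were 0.91 for Nlgn2 and Nlgn3, 0.90 for Nrxn3 and Cntnap2, 0.85 for Nrxn2 and Nlgn2, and 0.83 for Nlgn1 and Nlgn3, and the lowest was 0.27 for Nlgn1 and Cntnap4.

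High anxiety was set against low anxiety to ask which members went with the behavioural class, and a member was counted as higher or lower at a log2 ratio of 0.32 or more in size. At least 100 UMIs in 1 of the 2 libraries made it measured. In D1 neurons all 7 members were measured, 0 were higher and 1, Nlgn3, was lower, against 7.46% of 7470 measured genes higher and 11.6% lower. Nlgn3 had 19.5 CPM in high anxiety (103 UMIs) and 27.4 CPM in low anxiety (129 UMIs), a log2 ratio of -0.49 (-0.88 to -0.11). With the stricter nucleus filter (1000 genes or more, mitochondrial UMIs up to 1%) the ratio was -0.29, which ends the call and leaves 0 members past 0.32. The urolithin A library, at 20.5 CPM, lay with high anxiety and below low anxiety. The ratio was -0.49 (-1.03 to 0.05) in cluster 1 and -0.49 (-1.07 to 0.08) in cluster 5, with both intervals reaching 0. Nlgn3 had a UMI in 14.01% of high anxiety and 14.5% of low anxiety D1 nuclei, and in 3.53% and 5.49% when every nucleus was thinned to 2000 UMIs.

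The other members of D1 neurons moved by less. Nlgn1 was 0.11 higher (0.08 to 0.14), and Cntnap4 was -0.22 (-0.41 to -0.02), Nrxn3 was -0.05 (-0.07 to -0.03), and Nrxn2, Nlgn2 and Cntnap2 had intervals that held 0. In D2 neurons 5 members were measured and 0 were higher or lower, against 7.88% of 6260 genes higher and 10.4% lower. Nrxn2 had 145 CPM in high anxiety and 122 CPM in low anxiety, a log2 ratio of 0.25 (0.07 to 0.44), short of 0.32. Within the larger D2 cluster 4 this ratio was 0.36 (0.14 to 0.58), and in cluster 8 it was -0.02 (-0.37 to 0.33). Cntnap4 in D2 neurons was under the measured limit with 42 UMIs in high anxiety and 88 in low anxiety, and its log2 ratio was -1.21 (-1.78 to -0.66), the sign that it had in D1 neurons. Nlgn3, with 82 UMIs in either library, had -0.14 (-0.60 to 0.32).

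**Figure D2:**
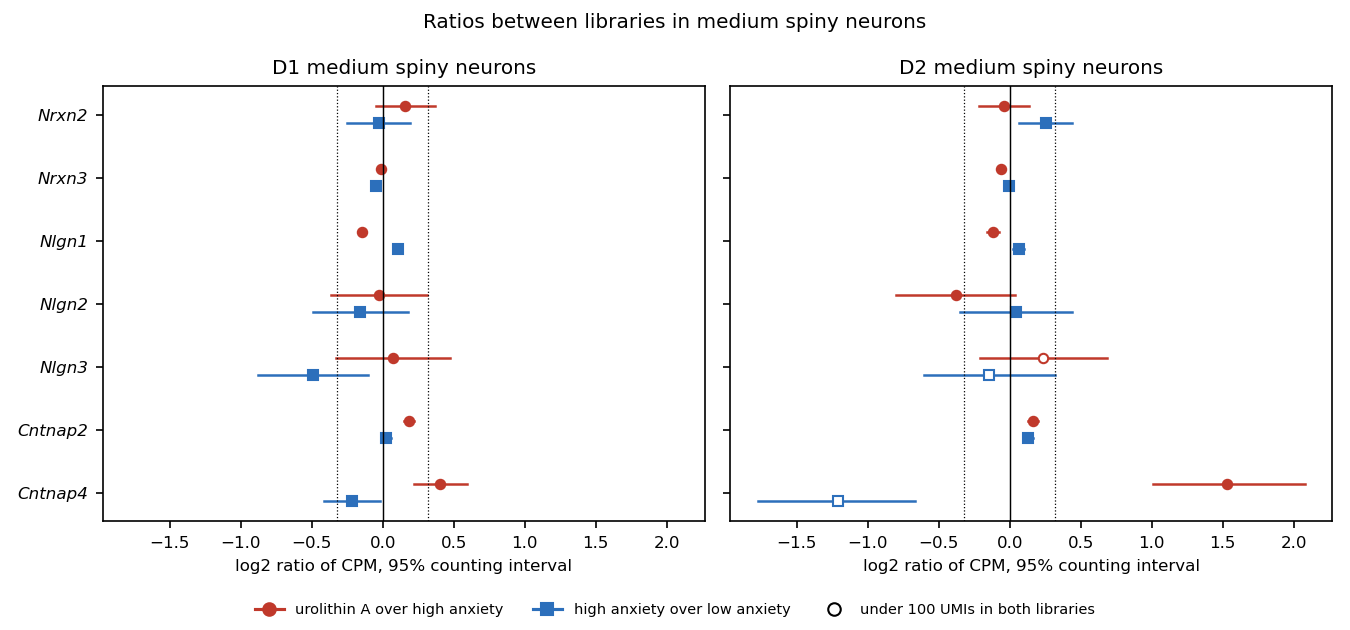
Log2 ratios of the 7 members in D1 and D2 neurons for urolithin A over high anxiety and high anxiety over low anxiety; bars are exact 95% counting intervals, dotted lines mark 0.32 in size and open symbols stand for under 100 UMIs in both libraries. Cntnap4 in D2 neurons stands furthest from 0 in both comparisons, at 1.53 and -1.21.

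Urolithin A was set against high anxiety without treatment, with the high anxiety library in common with the preceding comparison. In D1 neurons 1 member, Cntnap4, was higher and 0 were lower, of 7 measured, against 9.46% of 7590 genes higher and 4.35% lower. Cntnap4 had 558 UMIs (105 CPM) with urolithin A and 419 UMIs (79.2 CPM) in high anxiety, a log2 ratio of 0.41 (0.22 to 0.59). Its ratio was 0.56 (0.30 to 0.83) in cluster 1 and 0.37 (0.10 to 0.64) in cluster 5. With finer clustering the 3 clusters then named D1 gave 0.18, 0.28 and 0.38, each with an interval that held 0.

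Cntnap2 in D1 neurons had 2836 CPM with urolithin A and 2494 CPM in high anxiety, a log2 ratio of 0.19 (0.15 to 0.22). The ratio was 0.15 in cluster 1 (0.11 to 0.19) and -0.08 in cluster 5 (-0.14 to -0.02), and cluster 1 held 69.1% of D1 nuclei with urolithin A and 55.3% in high anxiety. In low anxiety cluster 1 held 58.9% of D1 nuclei and Cntnap2 had 2458 CPM, so mix and level did not have the same order over the libraries. The part of the mix in the Cntnap2 difference was not tested. Nlgn1 had a ratio of -0.14 (-0.17 to -0.11) and was lower in both clusters, at -0.09 and -0.22.

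In D2 neurons 6 members were measured under urolithin A, and 1 was higher and 1 lower, against 10.2% of 6274 genes higher and 4.86% lower. The higher one was Cntnap4, the gene chosen for this difference. It had 113 UMIs (31.9 CPM, 26.3 to 38.3) with urolithin A and 42 UMIs (11.0 CPM, 7.96 to 14.9) in high anxiety, and 88 UMIs (25.5 CPM, 20.5 to 31.5) in low anxiety. The log2 ratio of urolithin A over high anxiety was 1.53 (1.01 to 2.08), or 2.89-fold. High anxiety lay below both others. Urolithin A over low anxiety had a log2 ratio of 0.3197 (-0.10 to 0.74), just short of the limit of 0.3219, with an interval that held 0. The lower one was Nlgn2, with 84 UMIs with urolithin A and 117 in high anxiety, a ratio of -0.38 (-0.80 to 0.04) whose interval held 0.

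Cntnap2 was higher by 0.16 (0.13 to 0.20) in D2 neurons, with 3755 CPM under urolithin A and 3357 CPM in high anxiety. In cluster 8 its ratio was 0.16 (0.11 to 0.22), and in cluster 4 it was -0.03 (-0.08 to 0.02). Nlgn1 was lower, at -0.12 (-0.16 to -0.08), and Nrxn3 was at -0.06 (-0.09 to -0.04). For Nlgn1 the ratio was -0.19 (-0.24 to -0.14) in cluster 4, and in cluster 8 the interval ran from -0.07 to 0.07. All of these shifts of Cntnap2, Nlgn1 and Nrxn3 stayed under 0.32.

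Cntnap4 in D2 neurons came largely from the Calcr-led cluster 8. In that cluster it had 69.0, 25.8 and 64.1 CPM in the urolithin A, high anxiety and low anxiety libraries (97, 26 and 68 UMIs), and it was found in 56 of 225, 15 of 143 and 44 of 204 nuclei. In cluster 4 it had 7.48, 5.72 and 8.39 CPM, with 15 of 307, 13 of 362 and 14 of 353 nuclei holding a UMI. The high anxiety library was lowest in both clusters, and the intervals of the 3 libraries overlapped in cluster 4. The ratio of urolithin A over high anxiety was 1.42 (0.78 to 2.10) in cluster 8 and 0.39 (-0.71 to 1.48) in cluster 4.

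The share of cluster 8 among D2 nuclei was 42.3% with urolithin A, 28.3% in high anxiety and 36.6% in low anxiety, so the mix moved with the Cntnap4 level. With the 2 clusters weighted by their shares of the pooled D2 UMIs, and so alike in each library, the log2 ratio was 1.16. At finer clustering, 2 Calcr-led D2 clusters held Cntnap4 at 33.6, 9.79 and 40.7 CPM and at 104, 34.4 and 107 CPM, in the order urolithin A, high anxiety, low anxiety. High anxiety was lowest in both, where it had 57 and 93 nuclei, so its values rest on few UMIs. These clusters regroup nuclei of the same libraries, so they are no separate support.

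Depth differed between the libraries, with medians of 6392, 7291 and 5718 UMIs per D2 nucleus in the same order. Cntnap4 had a UMI in 13.3%, 5.54% and 10.4% of D2 nuclei, and in 4.93% (3.25 to 7.15), 2.19% (1.10 to 3.89) and 5.58% (3.82 to 7.82) after thinning to 2000 UMIs, which left out 5, 3 and 1 nuclei. Microglia, which should hold little of it, gave 0.592%, 0.772% and 0.493% at medians of 1879, 1889 and 1599 UMIs. D1 nuclei gave 17.7%, 11.4% and 17.1% after thinning, again lowest in high anxiety.

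**Figure D3:**
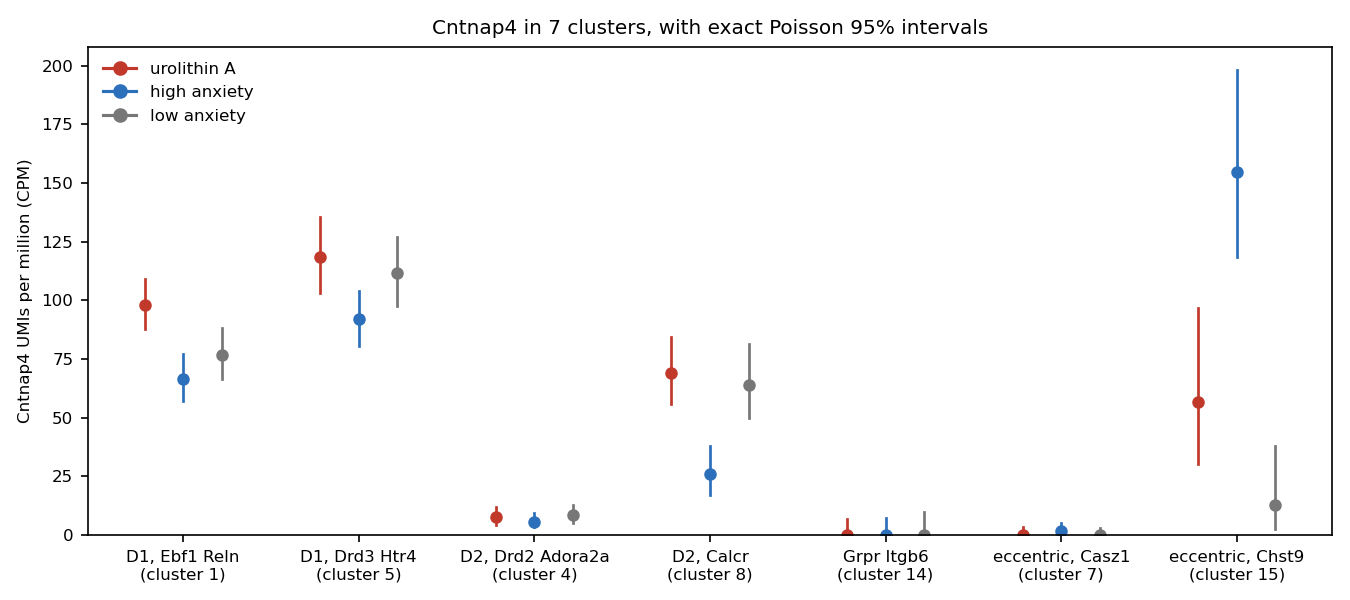
Cntnap4 level (CPM, linear axis from 0) in 7 clusters, 6 of them named spiny neurons and cluster 14 unnamed, 1 point per library with its exact Poisson 95% interval. In the Calcr-led cluster 8 the high anxiety library lies at 25.8 CPM, below 69.0 and 64.1 CPM, and in cluster 15 it lies above both others at 155 CPM.

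Genes of ventral striatum and shell position are given beside Cntnap4, since their sum was also lowest in high anxiety. The summed level over 5 genes was 1354, 1026 and 1318 CPM in D2 neurons and 1107, 814 and 1147 CPM in D1 neurons, in the order urolithin A, high anxiety, low anxiety, with 0 of the 5 genes at 0. In D2 neurons of the urolithin A and high anxiety libraries most of that sum was Cartpt. Calcr, the calcitonin receptor, had 127, 54.4 and 84.7 CPM in D2 neurons. Within cluster 8 it had 243, 194 and 229 CPM, and within cluster 4 it had 50.5, 4.29 and 20.6 CPM. Wfs1, a gene of the endoplasmic reticulum, had 152, 92.9 and 129 CPM within cluster 4. Nts, the neurotensin gene and another of the 5, went the other way in D2 neurons, with 184 CPM under urolithin A and 231 CPM in high anxiety. The 3 dorsal position genes summed to 92.0, 91.7 and 112 CPM in D2 neurons, nearly level in urolithin A and high anxiety. In D1 neurons they summed to 101, 93.6 and 104 CPM. Of these genes Cnr1 was highest in high anxiety in D1 neurons, and Coch and Gpr155 were lowest there. Nuclei named glutamatergic neurons were 0.614%, 5.36% and 2.93% of all nuclei (21, 198 and 99) in urolithin A, high anxiety and low anxiety. Whether the position of the punches had a part in the Cntnap4 difference was not tested.

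Markers of GABAergic interneurons, where Cntnap4 is high, summed over 8 genes to 24.3, 12.6 and 17.1 CPM in D2 neurons, with 3, 2 and 2 genes at 0, and to 27.9, 19.9 and 26.96 CPM in D1 neurons, with 1 gene at 0 in each. The 3 cholinergic markers summed to 0.846, 0.263 and 1.45 CPM in D2 neurons. Mitochondrially encoded genes took 1.10%, 0.848% and 0.686% of UMIs in D2 neurons. The part of these levels in the Cntnap4 difference was not tested.

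Contactins and other Caspr genes were set beside Cntnap4 in the 2 D2 clusters. Cntnap5a, a Caspr gene of the same family, had 913, 797 and 970 CPM in cluster 8 and 333, 215 and 242 CPM in cluster 4, and Cntnap5b had 231, 167 and 223 CPM and 135, 91.5 and 109 CPM. Both were lowest in high anxiety in both clusters. Cntn6, a contactin, went the other way in cluster 8, at 9.25, 38.7 and 15.1 CPM (13, 39 and 16 UMIs), with a log2 ratio of urolithin A over high anxiety of -2.07 (-3.10 to -1.13). In cluster 4 that ratio was -0.32 (-0.59 to -0.05).

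**Figure D4:**
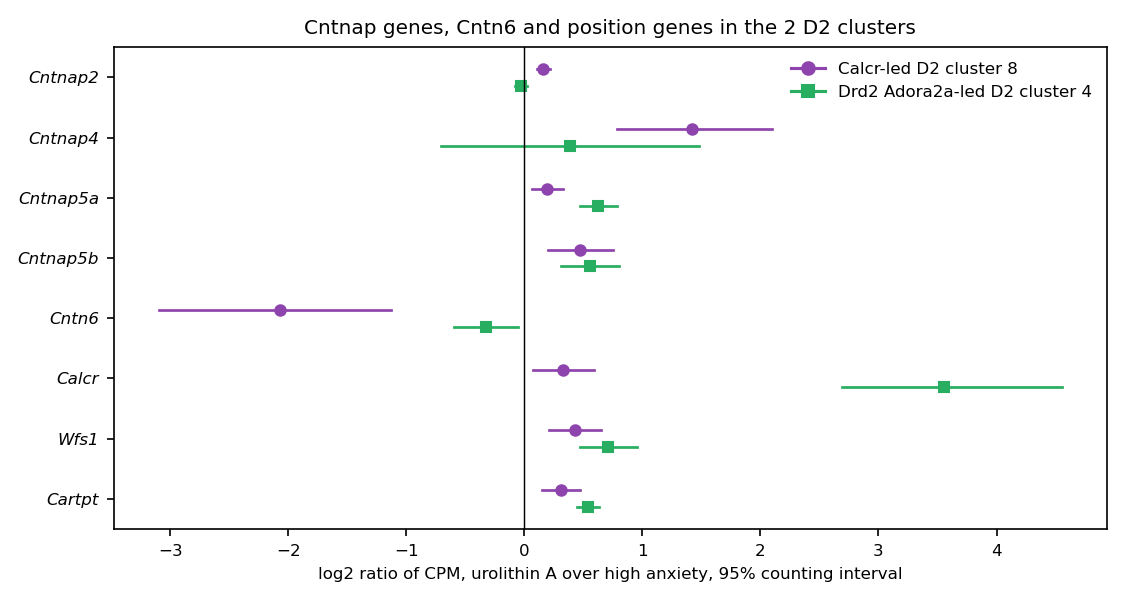
Log2 ratios of urolithin A over high anxiety for Cntnap genes, Cntn6 and 3 position genes in the Calcr-led D2 cluster 8 and the Drd2 and Adora2a-led D2 cluster 4; bars are exact 95% counting intervals. Cntnap4 is at 1.42 in cluster 8, Cntn6 at -2.07, and Calcr reaches 3.56 in cluster 4.

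Eccentric neurons showed the opposite order for Cntnap4, at 10.1, 31.3 and 10.5 CPM from 14, 67 and 19 UMIs in the urolithin A, high anxiety and low anxiety libraries, under the measured limit. The log2 ratios were -1.64 (-2.58 to -0.79) for urolithin A over high anxiety and 1.57 (0.82 to 2.39) for high anxiety over low anxiety. They came from few nuclei: in cluster 15 the 62 UMIs of the high anxiety library sat in 12 of 78 nuclei, 1 of them with 13, against 13 UMIs in 6 of 51 nuclei with urolithin A and 3 UMIs in 2 of 56 nuclei in low anxiety. The Casz1 cluster 7 held 0, 3 and 0 UMIs, and the Grpr cluster 14 held 0 in each library, which allows up to 5.61, 5.94 and 8.02 CPM.

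Of 4 members measured in eccentric neurons for high anxiety over low anxiety, Nlgn1 was lower and 0 were higher, against 11% of genes lower and 11% higher. Nlgn1 had 829 CPM in high anxiety and 1042 CPM in low anxiety, a log2 ratio of -0.33 (-0.42 to -0.24). Cluster 18, which is mostly low anxiety, had 2086 CPM of Nlgn1 there. In clusters 7 and 15 the high anxiety levels were 753 and 989.6 CPM, and the low anxiety levels 758 and 940.4 CPM. Under urolithin A over high anxiety 0 of 4 were higher or lower, against 8.46% and 8.1%.

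Of the glia, oligodendrocyte precursors had the highest levels of 4 members, as given above. In that class 4 members were measured in each comparison, and 0 were higher or lower: Nrxn3 came closest, with 1450 CPM under urolithin A and 1784 CPM in high anxiety, a log2 ratio of -0.30 (-0.46 to -0.14). The background in that class was 12% higher and 11.2% lower for high anxiety over low anxiety, and 10.3% and 9.15% for urolithin A over high anxiety. In astrocytes 3 members were measured, and 1 was lower with urolithin A, against 9.73% of genes higher and 11.1% lower. It was Nrxn3, with 724 CPM under urolithin A and 938 CPM in high anxiety, a log2 ratio of -0.38 (-0.61 to -0.14). For high anxiety over low anxiety 0 of 3 were higher or lower, against 11.7% and 16.8%. The shared spiny markers summed in astrocytes to 1897, 1784 and 2574 CPM in urolithin A, high anxiety and low anxiety, and Nrxn3 had 38.1, 52.6 and 44.5 UMIs per 100 UMIs of these markers. Their part in the Nrxn3 differences was not tested.

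In oligodendrocytes 2 of 3 measured members were lower in high anxiety than in low anxiety, against 12% of genes higher and 6% lower. Of these, Cntnap2 reached 100 UMIs in low anxiety only, with 90 UMIs in high anxiety and 115 in low anxiety. Nrxn3 had 83.0 CPM in high anxiety and 178 CPM in low anxiety (-1.11, -1.38 to -0.83), and Cntnap2 had 35.2 and 82.8 CPM (-1.23, -1.65 to -0.82). These levels were near those of microglia, where Nrxn3 had 114 CPM in high anxiety and 188 CPM in low anxiety, and Cntnap2 had 38.0 and 90.9 CPM. Set against UMIs of shared medium spiny neuron markers, oligodendrocytes held 11.0 Nrxn3 UMIs per 100 in high anxiety and 20.1 in low anxiety, and microglia 22.6 and 26.8. The shared spiny markers themselves had 752 CPM in high anxiety and 889 CPM in low anxiety in oligodendrocytes. The part of free RNA in these differences was not tested. For urolithin A over high anxiety 1 of 2 measured members, Nrxn3, was lower (-0.49, -0.81 to -0.16), against 3.44% higher and 5.32% lower. In microglia 0 members were measured, against 20.6% of genes higher and 9.65% lower for high anxiety over low anxiety and 3.39% higher and 13.7% lower for urolithin A over high anxiety.

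Urolithin A over low anxiety shares its libraries with both comparisons above. In D1 neurons 1 of 7 members, Nlgn3, was lower, at -0.42 (-0.80 to -0.04), and 0 were higher, against 10.1% of genes higher and 7.33% lower. The stricter nucleus filter gave -0.27 and the larger D1 cluster alone -0.30, both short of 0.32. In D2 neurons 1 of 6, Nlgn2, was lower, at -0.34 (-0.77 to 0.09), and 0 were higher, against 11.4% and 7.28%. Nlgn2 reached 100 UMIs there in low anxiety only, with 84 UMIs under urolithin A and 103 in low anxiety. Cntnap2 was higher by 0.29 (0.25 to 0.33) in D2 neurons and 0.21 (0.17 to 0.24) in D1 neurons, short of 0.32. Of 4 members measured in eccentric neurons Nlgn1 was lower, at -0.50 (-0.61 to -0.39), against 9.84% of genes higher and 11.1% lower. Nrxn3 was the 1 lower member of 3 in astrocytes, at -0.66 (-0.88 to -0.45), against 7.21% and 15.1%, where the spiny markers given above were lower too. All 3 measured members, Nrxn3, Nlgn1 and Cntnap2, were lower in oligodendrocytes, at -1.59, -0.32 and -1.45, against 9.58% and 4.62%, at levels of Nrxn3 and Cntnap2 near those of microglia. Cntnap2 reached 100 UMIs there in low anxiety only, with 65 UMIs under urolithin A and 115 in low anxiety. In oligodendrocyte precursors 0 of 4 passed, against 11.5% and 14.1%, and in microglia 0 were measured, against 10.3% and 8.74%.

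Partners of the members were followed in lists, with the median over all measured genes at -0.0076 in D1 neurons and -0.0032 in D2 neurons for high anxiety over low anxiety, and at 0.03 in both for urolithin A over high anxiety. Of all measured genes, 7.46% were higher and 11.6% lower in D1 neurons in high anxiety, and 7.88% and 10.4% in D2 neurons. With urolithin A the shares were 9.46% and 4.35% in D1 neurons and 10.2% and 4.86% in D2 neurons. Single genes named from these short lists are descriptions. Of the other Cntnap genes, 0 of 4 were higher and 1 lower in D1 neurons for high anxiety over low anxiety (median -0.19), namely Cntnap3 at -0.48, and 0 of 3 higher and 2 lower in D2 neurons (median -0.34). Those 2 were Cntnap5b, at -0.37, and Cntnap5a, at -0.34. Under urolithin A both were higher in D2 neurons, at 0.63 and 0.61 (median of 3, 0.61), and 0 of 4 passed 0.32 in D1 neurons (median 0.24).

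Secreted neurexin ligands and GluD receptors had 3 measured genes in each class, with 0 higher or lower in both comparisons and medians between -0.11 and 0.07. Of the membrane partners of neurexins, 2 of 6 were higher in D1 neurons in high anxiety, Lrrtm2 (0.59) and Clstn3 (0.47), and 1 of 5 in D2 neurons, Clstn3 (0.47), with 0 lower. Lrrtm2 and Clstn3, a calsyntenin, both organise synapses. Under urolithin A 0 passed in either class. Among scaffolds and partners of neuroligins 1 of 13 was higher in D1 neurons in high anxiety and 1 of 11 in D2 neurons, and it was Shank3 in both, a postsynaptic scaffold, at 0.41 and 0.39. None was lower, and 0 passed under urolithin A.

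Of the cytoplasmic binders and splice regulators, 1 of 11 was lower in D1 neurons and 2 of 10 in D2 neurons in high anxiety, with 0 higher. Lin7b, which joins the complex at the neurexin tail, was lower in both classes (-0.50 and -0.62), and Caskin1 was lower in D2 neurons (-0.41) and higher there with urolithin A (0.39, 1 of 10). Khdrbs3, a regulator of neurexin splicing, was lower in D1 neurons with urolithin A (-0.61, 1 of 11). The Caspr partners had 0 of 11 and 0 of 10 higher or lower in high anxiety. With urolithin A 5 of 10 were lower in D2 neurons and 0 higher, with a median of -0.26 that compares with 0.03 over all genes, and 1 of 11 was lower in D1 neurons, with a median of -0.18. Cntn6 (-0.68 in D2, -0.66 in D1) and Epb41l3 (-0.43 in D2), which binds the Caspr tail, were furthest from 0. The other 3 lower ones in D2 neurons, named after their values were seen, were the contactins Cntn4 (-0.35), Cntn1 (-0.35) and Cntn3 (-0.33).

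Of 12 other synaptic adhesion organisers in D1 neurons, 3 were higher and 1 lower in high anxiety, and 1 was higher and 2 lower with urolithin A. Slitrk3 was at -0.52 in high anxiety and 0.46 with urolithin A, and Il1rap at 0.39 and -0.51. Named after their values were seen, Cadm2 (0.33) and Slitrk5 (0.32) were the other higher ones in high anxiety, and Cadm2 (-0.41) the other lower one with urolithin A. Of 11 in D2 neurons, 1 was higher and 1 lower in high anxiety, Ntng1 (0.42) and Cadm3 (-0.34), and with urolithin A 1 was higher, Slitrk4 (0.58), and 2 were lower, Ntng1 (-0.42) and, named after its value was seen, Cadm2 (-0.40). These comparisons share the high anxiety library, so the opposite signs are not independent. Of the shell position genes, 3 of 4 were lower in high anxiety in D1 neurons, with Dlk1 at -1.24 and Wfs1 at -0.62, and 3 of 4 in D2 neurons, with Calcr at -0.64 and Wfs1 at -0.61. With urolithin A 3 of 4 were higher in each class, Dlk1 at 1.249 and Wfs1 at 0.70 in D1 and Calcr at 1.22 and Wfs1 at 0.75 in D2, and 1 of 4 was lower in D2. Named after their values were seen, Cartpt was the third of these position genes in each class and comparison, and Nts (-0.33) the lower one in D2. Of 3 dorsal position genes in D1 neurons, Cnr1 was higher (0.55) and Coch lower (-0.33) in high anxiety, and with urolithin A Cnr1 was lower (-0.78) and Gpr155 higher (0.40). In D2 neurons 1 of 2, Gpr155, was lower in high anxiety (-0.39), and 0 passed with urolithin A.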

How the data were processed

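Single-nucleus RNA of 3 pooled libraries, 1 per group, was measured with the Chromium 3' v3.1 kit, per the labels' protocols. The deposited files are raw UMI counts for each feature in each barcode. Per the file headers, Cell Ranger 7.1.0 wrote them, and the genome build was mRatBN7.2, per the submitters' processing notes. Counting of intronic reads and removal of free RNA are not given in the sources used here.

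Nuclei needed 500 genes or more and no more than 5% mitochondrial UMIs, and 99, 116 and 97 likely doublets (0.8% per 1000 nuclei, by Scrublet score) were removed in urolithin A, high anxiety and low anxiety. After scaling each nucleus to 10000 and taking logs, 2000 variable genes without the members were standardised library by library, and 30 principal components, 15 neighbours and Leiden resolution 1 (seed 7) gave the clusters. Names came from the marker list of highest mean fold, with 3 or more markers at least 2-fold higher. The numeric limits of naming were set after the files were seen. Microglia were compared as well, with 0 members measured. Of 249 symbols in the lists 235 matched a feature, and the rest were not analysed here.

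UMIs were summed per class and library. Levels have exact Poisson intervals, shares exact binomial (Clopper-Pearson) intervals and ratios exact conditional intervals, at 95%. UMIs of 1 nucleus are not independent, so these are limits of counting error alone. For 0 UMIs, 3 counts were taken as the upper limit. edgeR was not used because 1 library per group leaves no residual spread. The ratio script was tested on simulated counts. Members and lists were chosen with earlier results of these data known. Genes named were all members, in each list the 2 genes past a log2 ratio of 0.32 and furthest from 0 per class and comparison, and the 3 genes most like each member. One of these genes is not reported here. The genes of the plot of D2 clusters, the finer clusters and the nuclei holding Cntnap4 were chosen after their values were seen. Alternatives covered nucleus filters, doublets, resolution, members among the variable genes, scaling, cluster mix, thinning and the minimum of UMIs.

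Tools were python 3.11.15, scanpy 1.11.5, anndata 0.12.19, scikit-learn 1.9.0, matplotlib 3.10.9, pandas 2.3.3, scipy 1.17.1, numpy 2.4.6, igraph 0.11.9 and leidenalg 0.10.2.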

Additional observations from a re-analysis of the deposited data

Results flagged for a closer look

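The ratio of high anxiety over low anxiety for Nlgn1 was above 0 in D1 and D2 neurons and below 0 in eccentric neurons. The D1 value exceeded the eccentric value by 0.44 on the log2 scale, and the D2 value by 0.39. Cluster 18, mostly low anxiety nuclei with 2086 CPM of Nlgn1, is part of the eccentric class.

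Cntnap4 had opposite signs in eccentric neurons and in D1 and D2 neurons. For high anxiety over low anxiety the eccentric value exceeded the D1 value by 1.79 and the D2 value by 2.78 on the log2 scale. For urolithin A over high anxiety the D1 value exceeded the eccentric value by 2.04 and the D2 value by 3.17. The D2 ratio of urolithin A over high anxiety is the difference for which Cntnap4 was picked, so it supports nothing. The eccentric values rest on 14, 67 and 19 UMIs in urolithin A, high anxiety and low anxiety, under the measured limit. In high anxiety 62 of those UMIs sat in 12 nuclei of cluster 15. With 1 library per group none of these differences between classes was tested, and the comparisons share the high anxiety library.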

How the results depend on the processing

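No paired analysis was possible because each group is 1 library. Of 432 values for 36 single-gene ratios under 12 alternatives, 370 lay within the counting interval of the reported value, 62 lay outside it and 0 turned the sign of a ratio past 0.32. Most ratios were smaller than 0.32, and a change of their sign was not counted as a turn. The 36 ratios leave out Cntnap4 in D2 neurons for urolithin A over high anxiety and Nlgn3 in D1 neurons for high anxiety over low anxiety. Those are given below. Cntnap2 for urolithin A over high anxiety changed sign in the second D1 cluster and in the larger D2 cluster, as given above. The number of members with 1 sign of D2 over D1 in the 3 libraries was 5 of 7, and it was 5 in each of 11 other settings.

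Cntnap4 in D2 neurons, at 1.53 for urolithin A over high anxiety, was 0.39 in the larger D2 cluster alone, outside its counting interval, and between 1.09 and 1.68 otherwise. Nlgn3 in D1 neurons, at -0.49 for high anxiety over low anxiety, ranged from -0.74 with thinned nuclei to -0.29 with the stricter nucleus filter, which is short of 0.32. Members past 0.32 in D1 and D2 neurons numbered 1 for high anxiety over low anxiety, 0 with the stricter filter, and 2 in the larger cluster alone, in the second cluster alone and with thinned nuclei. The number was 3 for urolithin A over high anxiety (2 to 3), and 2 for urolithin A over low anxiety, which became 4 with the stricter filter, 1 with each nucleus weighted equally and 1 in the larger cluster alone. The restriction to the second cluster was chosen after the data were seen.

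List genes past 0.32 in D1 neurons numbered 9 for high anxiety over low anxiety (5 with the stricter filter), and 5 for urolithin A over high anxiety (10 at 50 UMIs, 2 at 200 UMIs, 8 with median-of-ratios scaling). In D2 neurons they numbered 8 (5 at 200 UMIs, with the stricter filter and in the larger cluster alone) and 11 (18 at 50 UMIs, 6 in the larger cluster alone). The causes were not tested. Nlgn2, Nlgn3 and Cntnap4 in D2 neurons rest on at most 117 UMIs a library, so a difference of 0.32 lies within the counting error there.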
